A study of Homo sapiens with 2 samples.

Results

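The genes described here are the long intergenic noncoding RNA genes, whose symbols begin with LINC and a digit, and the microRNA host genes, whose symbols begin with MIR and end in HG. The platform annotation gave such a symbol to 573 probe sets of 484 genes, 458 of them LINC genes and 26 host genes. A gene with more than 1 probe set was read from the probe set of highest mean level, and genes were kept at a mean log2 level of 3.7 or more. This left 158 of 484 genes (32.6%), namely 145 LINC genes and 13 host genes, among 10266 named genes at or above the same level. The genes were thus chosen by their mean level over both arrays, which is given as a description only. RefSeq types all 158 as lncRNA, and 0 carry another symbol there.

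HT1080, an established human fibrosarcoma cell line, was transduced by virus with a short hairpin RNA, or shRNA, and collected 48 hours later. One group received an shRNA against cMyc and the other a non-targeting control shRNA, and each group is 1 sample on 1 whole-transcript array. The labels give no clone, infection rate or selection, and both groups carry a viral vector. A difference is the log2 level with cMyc shRNA minus that with control shRNA, and it has no replicate check, test or p-value, since it describes these 2 arrays.

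Long noncoding RNAs are transcripts that are processed like messenger RNA but have no long open reading frame. Some act in the nucleus by recruiting chromatin or splicing factors, some act in the cytoplasm by binding proteins or microRNAs, and for most no role is known. A microRNA host gene is transcribed as a long primary RNA from which one or more short hairpins are cut, and the spliced remainder can persist as a lncRNA. MYC is a transcription factor that binds the E-box sequence CACGTG with its partner MAX, and host genes of microRNA clusters are among its known targets.

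MYC read 6.16 on the cMyc shRNA array and 7.09 on the control shRNA array, a log2 difference of -0.93 (1.91-fold lower). The array medians over 53617 probe sets were 3.73 for cMyc shRNA and 3.68 for control shRNA, and the median difference over all probe sets was 0.01. Of 16 mesenchymal markers 7 were measured, 0 of them past 2-fold, with a median difference of 0.06 and a range from -0.59 for VIM to 0.36 for THY1. Of the lists of markers of other cells, 4 of 8 epithelial, 3 of 8 haematopoietic, 0 of 5 endothelial and 3 of 4 muscle genes were measured, and of these the muscle filament gene DES alone lay past 2-fold, at 6.08 with cMyc shRNA and 4.84 with control shRNA. Whether such markers bear on the lncRNA results was not tested.

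Most of the lncRNAs lay close to their control level. With cMyc shRNA, 6 of 158 genes (3.80%) were higher by 2-fold or more, where 2.01% of all measured named genes were, and 3 (1.90%) were lower by as much, where 3.99% of all were. The remaining 149 lay within 2-fold. Repeat readings of a gene by different probe sets had an SD of 0.34 in their log2 differences, from the 417 genes with at least 2 measured probe sets, and 92 of the 158 lncRNAs lay closer to 0 than this. That SD may include differences between parts or copies of a locus, and it holds no variation between cultures or infections. Some symbols, such as LINC01623, have probe sets with identical values. Such copies were not removed, and whether they made the SD too small was not tested. The median difference of the lncRNAs was 0.05, with quartiles of -0.24 and 0.29, beside -0.01 over all measured named genes, with quartiles of -0.31 and 0.26. Both quartiles of all genes thus also lay within 0.34 of 0, so lying this close to 0 is not particular to the lncRNAs. The exact share of all genes within 0.34 was not counted. Above 0 were 87 lncRNAs and below 0 were 71, where 4982 of the 10266 measured named genes were above 0. Of 418 measured RefSeq lncRNAs outside the naming rule, 195 were above 0. With each array centred on its median the lncRNA median was 0.00, so this split moves with the scaling. Centring shifts every gene by the same amount, so it does not change the gap between the lncRNAs and all genes.

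At least 1.5-fold higher were 24 lncRNAs (15.2%), where 8.78% of all measured named genes were, and at least 1.5-fold lower were 10 (6.33%), where 11.9% of all were. Of the 24, 2 were below a level of 3.7 with control shRNA, and of the 10, 4 were below it with cMyc shRNA, so these passed the level minimum through the other array. Without them 22 were higher and 6 lower, among the 139 lncRNAs at or above 3.7 on both arrays. The shares of all genes given above were not filtered in this way. The differences between these shares, and between kinds of gene, were not tested, because genes are not replicates of a condition. Of 418 measured RefSeq lncRNAs outside the naming rule, 3 (0.718%) were past 2-fold on the higher side and 11 (2.63%) on the lower, and the median was -0.03. Antisense RNA genes had 2 of 213 higher and 5 lower, with a median of -0.05. Host genes of small nucleolar RNAs, which also carry short RNAs in a long transcript, had 0 of 9 higher and 3 lower, with a median of -0.33.

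**Figure D1:**
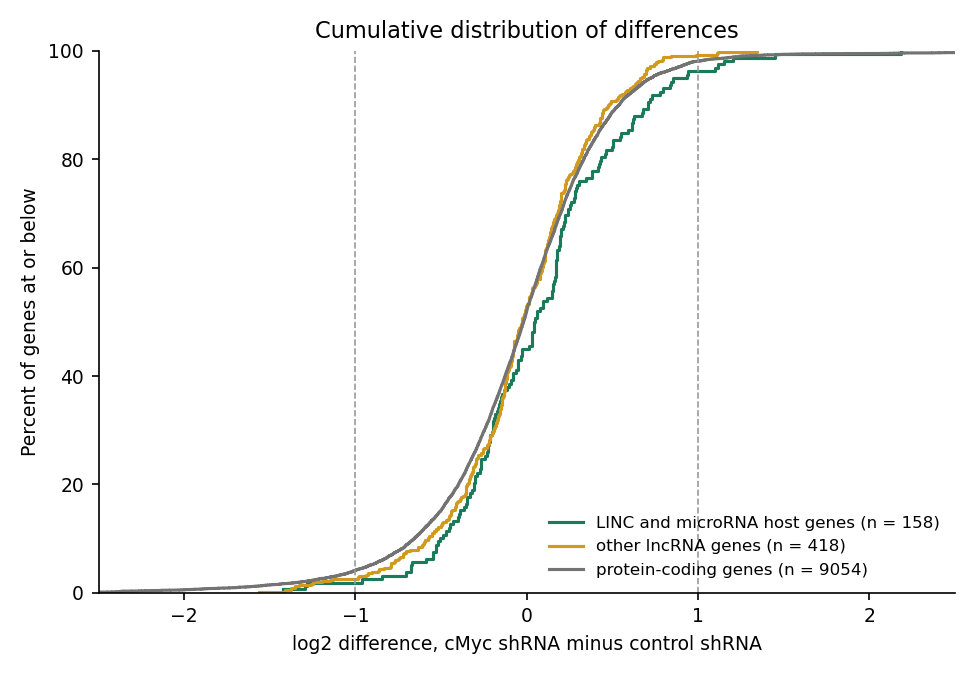
Percent of genes (vertical axis) at or below each log2 difference, cMyc shRNA minus control shRNA (horizontal axis), for the 158 LINC and microRNA host genes, 418 other lncRNA genes and 9054 protein-coding genes. The line of the LINC and host genes lies to the right of the other lines between 0 and 1, and 24 of these genes are at least 1.5-fold higher; dashed lines mark 2-fold.

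The lncRNAs had a median level of 4.5, beside 6.02 over all measured named genes. The files hold no detection call, and each probe set has its own probes, so a level does not rank one gene against another. Of the 79 lncRNAs with a mean level under 4.5, 0 were at least 2-fold apart in either direction, where 1.46% of all genes of that level were higher and 1.16% lower, and their SD of differences was 0.37, beside 0.41 for all 1987 named genes of that level. Between 4.5 and 6 were 49 lncRNAs, of which 5 (10.2%) were at least 2-fold higher and 0 lower, where 2.17% of all genes of that level were higher and 4.08% lower. At 6 or more were 30, of which 1 (3.33%) was higher and 3 (10%) lower, where 2.12% of all 5190 genes of that level were higher and 5.03% lower. These counts are too small to set the bands apart.

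**Figure D2:**
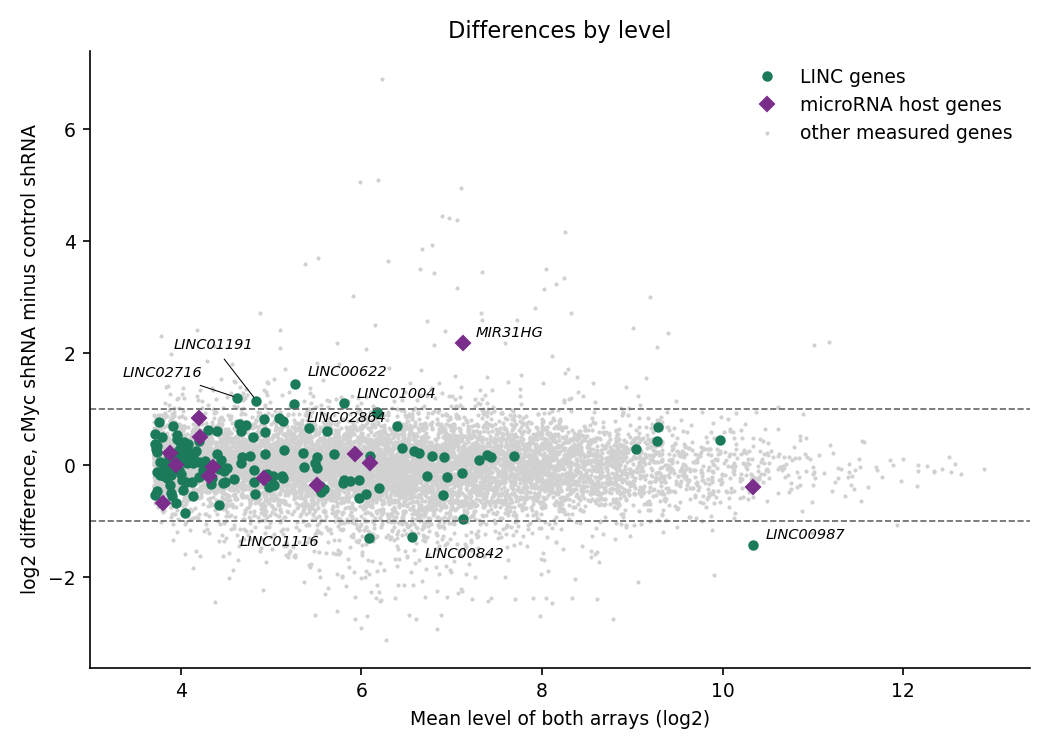
Log2 difference, cMyc shRNA minus control shRNA (vertical axis), against the mean log2 level of both arrays (horizontal axis) for LINC genes (circles), microRNA host genes (diamonds) and all other measured named genes (small dots). The 9 labelled genes lie beyond the dashed 2-fold lines, and MIR31HG is the highest of the LINC and host genes at 2.19.

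MIR31HG was the highest of the 158 lncRNAs and the highest of the 576 measured RefSeq lncRNA genes. It is the host gene of miR-31, and it has been described as a lncRNA that holds down the cell cycle inhibitor p16 (CDKN2A) with Polycomb proteins and, under the name LncHIFCAR, as a partner of the hypoxia factor HIF-1α. MIR31HG read 8.22 on the cMyc shRNA array and 6.03 on the control shRNA array, a log2 difference of 2.19 (4.56-fold higher). Both values lie well above the level minimum. Among all 10266 measured named genes it stood at place 40 from the top, and 3 of the 500 genes of most similar level matched or passed its difference. It was read by 1 probe set, so no second reading of it exists.

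The MIR31HG locus lies among the type I interferon genes, and RefSeq places the interferon gene IFNE and the interferon pseudogene IFNWP19 within its span. IFNE is not analysed here, since no probe set carries its name. The nearest measured protein-coding gene, KLHL9, an adaptor of a ubiquitin ligase, read 8.37 with cMyc shRNA and 7.95 with control shRNA, a difference of 0.42.

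The start of MIR31HG is shown because this gene has the largest difference of the set. The window, from RefSeq, runs from 250 bases before to 50 after the annotated start, on the minus strand of GRCh38.p14 at chr9:21559749-21560048. It is printed in lower case because none of the 5 motifs searched occurs in it.
MIR31HG: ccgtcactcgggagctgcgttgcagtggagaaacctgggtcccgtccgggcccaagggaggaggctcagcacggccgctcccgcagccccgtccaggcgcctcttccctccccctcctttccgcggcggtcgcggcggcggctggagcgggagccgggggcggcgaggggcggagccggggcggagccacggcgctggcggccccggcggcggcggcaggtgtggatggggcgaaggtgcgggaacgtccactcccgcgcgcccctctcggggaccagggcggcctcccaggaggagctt
Its bases are 77.7% G or C, where the median over the promoters of the lncRNAs is 56.3% and over all promoters 58.7%, and it holds 39 CG pairs.

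The other host genes were closer to their control level, and 0 of the other 12 reached 2-fold. MIR4500HG, the host of miR-4500, read 4.62 with cMyc shRNA and 3.77 with control shRNA, a difference of 0.85. MIR646HG differed by 0.50, from 4.47 with cMyc shRNA and 3.97 with control shRNA. These were the only host genes beside MIR31HG that lay above 0 by more than the probe set SD of 0.34.

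On the lower side, MIR181A2HG, host of a miR-181 pair, read 3.47 with cMyc shRNA and 4.14 with control shRNA, a difference of -0.68. The cMyc shRNA value is below the level minimum. MIR4435-2HG read 10.1 with cMyc shRNA and 10.5 with control shRNA, a difference of -0.40. Its mouse counterpart, Morrbid, governs the lifespan of myeloid cells. MIR550A3HG differed by -0.35 (5.33 with cMyc shRNA and 5.68 with control shRNA).

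The remaining 7 host genes lay within 0.34 of 0. They were MIR7-3HG (0.22), MIR100HG (0.20), MIR22HG (0.05), MIR600HG (0.01), MIR497HG (-0.03), MIR210HG (-0.19) and MIR4453HG (-0.23). MIR22HG is known to respond to cellular stress and MIR210HG to hypoxia, and MIR100HG carries a cluster of miR-100, let-7a-2 and miR-125b-1. MIR17HG, host of the miR-17-92 cluster and a known direct MYC target, was not kept, since it read 2.84 with cMyc shRNA and 3.41 with control shRNA, below the level minimum on both arrays.

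MIR4435-2HG is near-identical in part to CYTOR, another host of a miR-4435 copy, so their signals cannot be fully separated. It had 3 probe sets, with differences of -0.40, -0.26 and -1.24. The 3 probe sets of CYTOR gave -0.54, -0.53 and -0.14. All 6 lay below 0, and 1 of them, a dimmer probe set of MIR4435-2HG with 6.07 on the cMyc shRNA array and 7.31 on the control shRNA array, lay past 2-fold.

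RefSeq places 18 microRNA genes within these host genes, and 14 of them, in 10 hosts, had a named probe set on the array. These probe sets read the hairpin locus, and mature microRNAs were not assayed separately. At or above the level minimum were 6 of the 14. MIR4500 read 7.51 with cMyc shRNA and 5.81 with control shRNA, a difference of 1.70 (host 0.85). MIR31 read 5.07 with cMyc shRNA and 4.25 with control shRNA, a difference of 0.82 (host 2.19). MIR646 differed by 0.03.

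In these 3 the microRNA gene and its host lay on the same side of 0, and the first 2 belong to the host genes with the highest differences. The other 3 lay on the opposite side from their hosts. MIR210 differed by 0.40 (6.41 with cMyc shRNA and 6.01 with control shRNA) and MIR4453 by 0.09 (6.33 with cMyc shRNA and 6.24 with control shRNA). MIRLET7A2 read 4.31 with cMyc shRNA and 4.84 with control shRNA, a difference of -0.54. In the same host, MIR100HG, MIR125B1 and MIR100 were below the minimum and MIR10526 had no named probe set. A host and its hairpin thus differed by unlike amounts on these arrays, and 8 of the 14 hairpins were too dim to be compared.

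**Figure D3:**
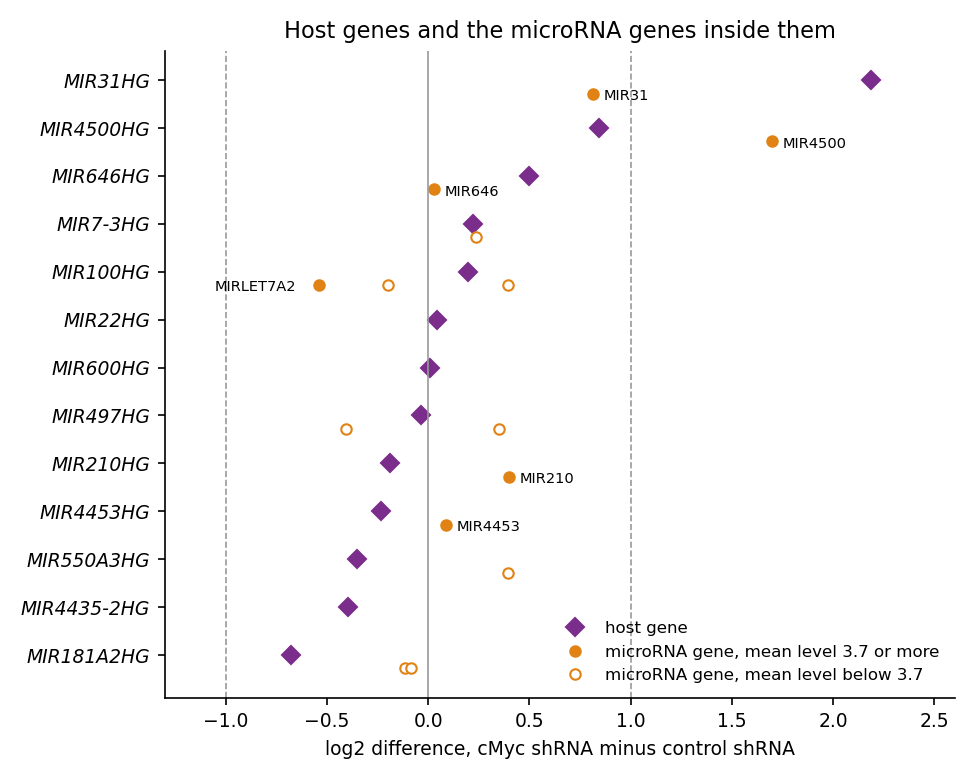
Log2 difference, cMyc shRNA minus control shRNA (horizontal axis), of the 13 host genes (diamonds) and of the microRNA genes inside them (circles below each host, open where the mean level is below 3.7). MIR31HG and MIR4500HG and their microRNA genes lie to the right of 0, and MIRLET7A2 lies to the left while its host MIR100HG lies to the right.

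The mature sequences are shown to group the hosts by seed, the bases 2 to 8, printed in capitals, through which a microRNA mainly pairs with messenger RNAs. They are RefSeq's, on GRCh38.p14. The 14 microRNA genes give 23 mature sequences with 20 seeds, of which 3 seeds occur in 2 sequences each. The first pair below belongs to hosts whose hairpins differed in opposite directions, and miR-31 is shown for the host with the largest difference.
hsa-miR-4500 (MIR4500HG): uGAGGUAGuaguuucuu
hsa-let-7a-5p (MIR100HG): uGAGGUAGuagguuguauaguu
hsa-miR-195-5p (MIR497HG): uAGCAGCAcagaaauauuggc
hsa-miR-497-5p (MIR497HG): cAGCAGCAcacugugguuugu
hsa-miR-181a-5p (MIR181A2HG): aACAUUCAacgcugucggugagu
hsa-miR-181b-5p (MIR181A2HG): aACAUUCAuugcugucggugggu
hsa-miR-31-5p (MIR31HG): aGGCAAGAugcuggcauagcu
The seed of miR-4500 is that of the let-7 family. The hairpin locus of MIR4500 differed by 1.70 and that of MIRLET7A2 by -0.54. The other shared seeds join hairpins of 1 host each, and these 4 hairpins were all below the level minimum.

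Among LINC genes, 5 of 145 were past 2-fold on the higher side. LINC00622 read 5.99 with cMyc shRNA and 4.54 with control shRNA, a difference of 1.45 (2.73-fold higher), and 2 of the 500 genes nearest in level had one as high. LINC02716 read 5.23 with cMyc shRNA and 4.02 with control shRNA (1.21). LINC01191 read 5.42 with cMyc shRNA and 4.26 with control shRNA (1.15). LINC00622 thus stood out from its level more than the others did, since 10 and 5 of the 500 nearest genes matched LINC02716 and LINC01191.

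LINC01004 read 6.37 with cMyc shRNA and 5.25 with control shRNA, a difference of 1.12. LINC02864 read 5.81 with cMyc shRNA and 4.70 with control shRNA, a difference of 1.10. Each of the 5 was read by 1 probe set, and all 10 of their values lie above the level minimum. No role is given here for these RNAs. Just short of 2-fold were LINC00470 (6.65 with cMyc shRNA and 5.70 with control shRNA) and LINC01776 (6.64 with cMyc shRNA and 5.71 with control shRNA), both with a difference of 0.94. LINC00308 followed with 0.85.

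**Figure D4:**
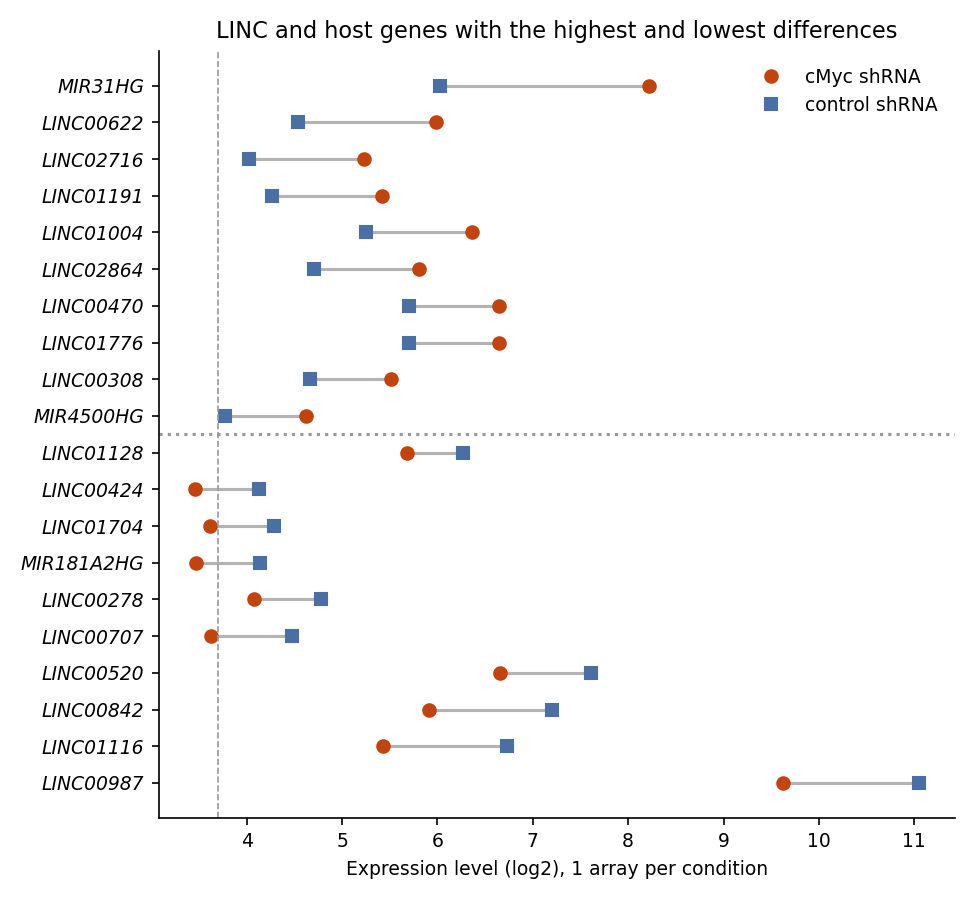
Log2 level on the cMyc shRNA array (circles) and on the control shRNA array (squares) of the 10 highest (upper block) and 10 lowest (lower block) genes of the set by difference, with the level minimum of 3.7 dashed. MIR31HG has the widest gap, at 8.22 with cMyc shRNA and 6.03 with control shRNA, and 4 genes of the lower block fall below the minimum on the cMyc shRNA array.

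The 3 genes at least 2-fold lower were all LINC genes with a level of 6 or more. LINC01116 read 5.43 with cMyc shRNA and 6.73 with control shRNA, a difference of -1.29 (2.45-fold lower). It lies beside the HOXD cluster and has been described as induced by hypoxia in tumours. LINC00842 read 5.92 with cMyc shRNA and 7.20 with control shRNA, a difference of -1.28 (2.43-fold lower). Its nearest protein-coding gene, the annexin gene ANXA8L1, read 4.57 with cMyc shRNA and 5.30 with control shRNA, a difference of -0.73.

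LINC00987 had the lowest difference. It read 9.62 with cMyc shRNA and 11.0 with control shRNA, a difference of -1.42 (2.69-fold lower), and 1 of the 500 genes nearest in level had one as low. Its second probe set, with a mean level of 3.61, gave -0.24. RefSeq places PTMAP4, a pseudogene of the prothymosin alpha gene, across its start, and the transcribed pseudogene A2MP1 around it. Signal from PTMAP4 or its parent gene, neither of which has a named probe set here, cannot be told apart from that of LINC00987, and its share in the result was not tested. HNRNPA1P33, a transcribed pseudogene within LINC00842, read 5.26 with cMyc shRNA and 5.16 with control shRNA, a difference of 0.10. Without the 37 genes whose loci overlap a RefSeq pseudogene (immunoglobulin segments not counted), 1 gene, LINC01116, was at least 2-fold lower, and 5 were higher, since MIR31HG is also left out.

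Further down on the lower side were LINC00520 (6.65 with cMyc shRNA and 7.61 with control shRNA, -0.96), which has been described as induced by Src signalling in breast cells, LINC00707 (-0.85) and LINC00278 (-0.71). LINC01704 (-0.68), LINC00424 (-0.67) and LINC01128 (-0.59) completed the 10 lowest with MIR181A2HG. LINC00707 read 3.63, LINC01704 3.61 and LINC00424 3.46 on the cMyc shRNA array, each under the level minimum, so the sizes of those differences are uncertain.

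Windows at the starts of 119 of the 158 genes were available, and of 7 of the 9 genes past 2-fold. They were searched on both strands for the E-box CACGTG, for TTTCCCGC and TTTGGCGC, which E2F factors bind, for TTTGAA, an element of cell cycle genes, and for GAAANNGAA, part of the interferon response element. The E-box occurred in 5 of the 119 genes (4.20%), where 5.84% of all lncRNA genes and 8.77% of all 27305 genes with a window had it. TTTGAA occurred in 15 (12.6%, and 18.2% of all genes), GAAANNGAA in 6 (5.04%, and 9.86% of all), TTTCCCGC in 1 (0.84%, and 1.98% of all) and TTTGGCGC in 2 (1.68%, and 0.795% of all). Over all lncRNA genes the shares of these 4 motifs were 21.4%, 10.8%, 1.05% and 0.393%, in the same order. The 7 genes past 2-fold have 9 windows, since LINC01191 has 3. Of these genes LINC02716 alone held the E-box and LINC00622 alone TTTGAA, and the 3 other motifs were in 0 of them. A match is a run of letters and not a bound site.

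Those 2 windows are shown with the matches in capitals, beside that of LINC00987, which lies within PTMAP4. LINC00622 is on the minus strand at chr1:119599242-119599541, LINC02716 on the plus strand at chr11:45771182-45771481 and LINC00987 on the plus strand at chr12:9239823-9240122, all on GRCh38.p14.
LINC00622: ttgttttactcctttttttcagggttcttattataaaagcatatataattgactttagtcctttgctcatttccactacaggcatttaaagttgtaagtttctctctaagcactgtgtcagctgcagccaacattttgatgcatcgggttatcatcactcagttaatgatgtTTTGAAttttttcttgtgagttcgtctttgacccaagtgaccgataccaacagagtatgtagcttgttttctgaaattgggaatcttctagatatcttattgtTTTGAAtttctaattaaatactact
LINC02716: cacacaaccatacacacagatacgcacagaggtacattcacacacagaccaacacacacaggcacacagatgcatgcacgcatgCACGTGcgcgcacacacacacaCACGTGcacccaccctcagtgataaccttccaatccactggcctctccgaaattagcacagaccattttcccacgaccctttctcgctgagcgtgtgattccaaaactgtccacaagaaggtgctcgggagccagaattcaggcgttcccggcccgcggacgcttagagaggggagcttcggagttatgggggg
LINC00987: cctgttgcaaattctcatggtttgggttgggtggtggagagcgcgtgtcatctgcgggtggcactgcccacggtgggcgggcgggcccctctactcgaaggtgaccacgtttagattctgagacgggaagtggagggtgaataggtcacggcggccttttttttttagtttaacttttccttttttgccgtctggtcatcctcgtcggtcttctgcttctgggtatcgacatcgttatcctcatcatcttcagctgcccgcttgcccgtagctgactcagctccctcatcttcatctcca
Both E-boxes of LINC02716 lie in a stretch of mostly CA repeats. The window of LINC00622 has 33.3% G or C and 3 CG pairs, where those of LINC00842 and LINC01116 have 68.3% and 72.7% G or C. The 3 windows of LINC01191 have 48.3%, 65.0% and 75.7% G or C, with 1, 29 and 39 CG pairs. The windows past 2-fold thus range from A- and T-rich to rich in CG pairs.

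The neighbouring protein-coding genes were set beside the lncRNAs. The nearest RefSeq protein-coding gene was measured for 74 of the 158, and 36 of the 74 pairs lay on the same side of 0, with a correlation of 0.16 across these pairs on the same 2 arrays. With the nearest measured coding gene taken for each of the 158, the correlation was 0.22. A coding gene overlapped the locus of 22 lncRNA genes, and the other 136 lay outside all of them. Of the 9 genes past 2-fold, 0 had such a neighbour past 2-fold, where 1.92% of all measured protein-coding genes were higher and 4.17% lower by as much, so that 9 genes are too few to read anything from this. The closest in size to its lncRNA was SRPK2, a splicing kinase and the nearest measured coding gene of LINC01004. It read 7.40 with cMyc shRNA and 6.49 with control shRNA (0.91). KMT2E is nearer to LINC01004 but was not measured.

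In 3 of the 158 pairs with the nearest measured coding gene, that gene lay past 2-fold, and the lncRNA lay within it. Over all measured protein-coding genes 1.92% were higher and 4.17% lower by as much. RHCG is nearer to LINC00928 and LOC107986012 to LINC00693 than the genes named here, but neither was measured. ANXA3, an annexin, read 6.31 with cMyc shRNA and 8.07 with control shRNA (-1.77), while LINC01094 differed by 0.17. TICRR, a replication initiation gene, read 6.21 with cMyc shRNA and 7.64 with control shRNA (-1.43), while LINC00928 differed by 0.05. AZI2, an adaptor of innate immune signalling, read 6.65 with cMyc shRNA and 5.63 with control shRNA (1.02), while LINC00693 differed by -0.39.

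Some symbols were read by several probe sets, which gives the one repeat reading these arrays hold. Of 29 such genes, 14 had at least 2 probe sets at or above the level minimum, and in 10 of the 14 all of these lay on 1 side of 0. Their probe set SD was 0.37, close to that over all genes. The gap between the probe sets of 1 gene had a median of 0.58 and reached 1.44 in LINC00173. There 1 of the probe sets behind the gap read 3.07 with control shRNA, below the level minimum. The probe sets of LINC00674 gave 0.71 and -0.16. These 2 genes are named after their values were seen.

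The brightest readings of the set beside LINC00987 and MIR4435-2HG were LINC01347 (10.2 with cMyc shRNA and 9.75 with control shRNA, 0.46), LINC00999 (9.62 with cMyc shRNA and 8.94 with control shRNA, 0.68) and LINC01000 (9.49 with cMyc shRNA and 9.05 with control shRNA, 0.44). None reached 2-fold. The 6 probe sets of LINC01347 all lay above 0, between 0.10 and 0.72. LINC01000 had 3, at 0.44, 0.30 and -0.10, and LINC00999 had 4, at 0.68, 0.62, 0.06 and 0.04. Whether the probe sets of 1 symbol read different copies or parts of a locus was not tested.

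**Figure D5:**
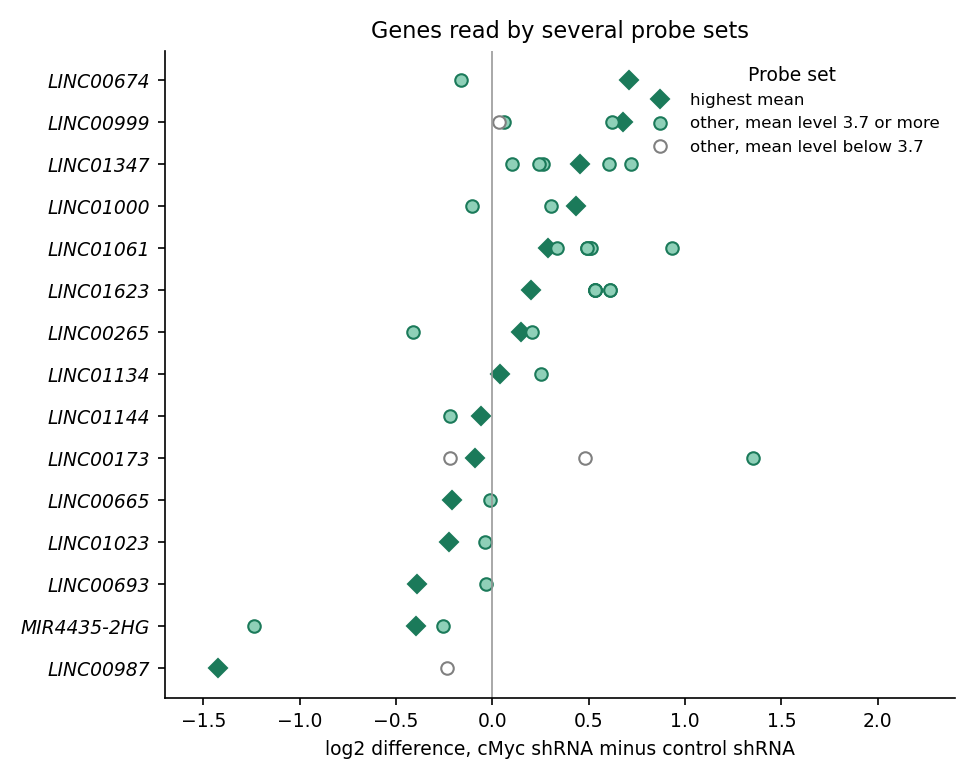
Log2 difference, cMyc shRNA minus control shRNA (horizontal axis), of each probe set of the 14 genes with at least 2 probe sets at a mean level of 3.7 or more, and of LINC00987. Diamonds are the probe sets that stand for the gene, filled circles others at 3.7 or more and open circles those below, and LINC00173 on the right and MIR4435-2HG and LINC00987 on the left have a probe set more than 1 log2 unit from 0.

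Related noncoding RNAs were taken from lists of described roles, which hold other genes as well. Of 20 lncRNAs described as MYC targets or partners, 5 were measured, 0 of them past 2-fold on the higher side and 3 on the lower. Over all measured named genes 2.01% were higher and 3.99% lower by as much, and these lists have too few measured genes to set beside those shares. The 3 lower genes were DANCR, which holds back differentiation (4.48 with cMyc shRNA and 5.85 with control shRNA, -1.37), and the snoRNA hosts SNHG16 (-1.26) and SNHG15 (-1.15). GAS5 differed by -0.44, and MIR22HG, the 1 gene of the list in the LINC and host set, by 0.05. Under current symbols that list holds no LINC gene.

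Of 12 lncRNAs described as induced by p53, 2 were measured and 0 were past 2-fold, with LINC-PINT at 0.42 and PURPL at 0.61. The list described in relation to interferon or viral sensing, not in every case as induced, had 4 measured of 11. Of these 0 were past 2-fold, with a range from -0.16 for NRAV to 0.08 for PSMB8-AS1. The hypoxia list had 5 measured of 7, with LINC01116 at least 2-fold lower, 0 higher and MIR210HG at -0.19. LncRNAs with a cytoplasmic or decoy role had 7 measured of 12, with MIR31HG at least 2-fold higher and 0 lower. In that list NORAD, which binds Pumilio proteins, differed by 0.23 and LINC00673, described as a regulator of the phosphatase PTPN11, by 0.03.

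The nuclear structural list had 1 measured gene of 6, MALAT1, at -0.03. Of 11 genes first named LINC and since described to encode a small protein, LINC00467 was the 1 measured, at 5.23 with cMyc shRNA and 4.64 with control shRNA, a difference of 0.59. Of the 14 genes of the machinery that cuts and loads microRNAs, 6 were measured and 0 were past 2-fold. TNRC6A, a partner of Argonaute (-0.92), and DGCR8, the RNA-binding subunit of the hairpin-cutting Microprocessor (-0.87), were lowest, and TNRC6C was highest at 0.40. In the MYC-MAX network 10 of 11 were measured and 0 were past 2-fold.

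The level minimum of 3.7 left 3 genes just inside it, LINC00967 (mean 3.71, difference -0.53), LINC00910 (3.71, 0.38) and LINC00240 (3.72, 0.55). Just outside were LINC00898 (3.696, -0.05), LINC00908 (3.69, -0.04) and LINC01801 (3.69, -0.43). Of the 158 genes kept, 139 were at or above 3.7 on both arrays, 10 were below it on the cMyc shRNA array alone and 9 on the control shRNA array alone. The 9 genes past 2-fold were all among the 139.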

How the data were processed

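Expression was measured in HT1080 cells on 2 Affymetrix Human Gene 2.0 ST arrays, 1 per group, 48 hours after infection. The deposited table holds log2 expression levels made by the authors with Affymetrix Expression Console, per the submitters' processing notes; no version, background correction or normalization step is named there, and base 2 was inferred from the range (1.41 to 13.9). No file gives intensities or detection calls, so precision is limited by having 2 arrays. GEO's platform annotation named 16098 of 53617 probe sets (30.0%), and RefSeq (GRCh38.p14) gave biotypes, neighbours, overlaps and sequences.

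Levels were compared as log2 differences, cMyc shRNA minus control shRNA, with no test. A 2-fold rule of size counted genes. The rule for named genes took those past 2-fold, the 10 highest, the 10 lowest and the 5 brightest, all host genes with their microRNA genes, 3 on each side of the level minimum, those beside a coding gene past 2-fold, list genes past 2-fold and MYC. It took 39 of the 158; other genes, such as list genes within 2-fold, were named after their values were seen. The members and lists were chosen with earlier results of these data known. Calculations ran in Python (3.11.15) with pandas (2.3.3), numpy (2.4.6) and, for loess, statsmodels (0.14.6), and were tested on simulated data. The 8 alternatives listed beforehand were 3 scalings, the mean over probe sets, 2 level minimums and 2 rules of size, and 2 were added after seeing the data.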

Additional observations from a re-analysis of the deposited data

How the results depend on the processing

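Centring, quantile normalization and loess left the count of higher genes at 6 and that of lower genes between 3 and 4, and the median difference between 0.00 and 0.02. Taking the mean over probe sets gave 6 and 2, no level minimum 7 and 3, and a level minimum of 5 gave 4 and 3. The 1.5-fold rule gave 24 higher and 10 lower, and the 3-fold rule 1 and 0, by construction. Asking for 3.7 on both arrays, an alternative chosen after seeing the data, gave 6 and 3. Leaving out loci that overlap a RefSeq pseudogene, also chosen after seeing the data, gave 5 higher and 1 lower, since MIR31HG, LINC00987 and LINC00842 are left out. Named genes have 156 values under the other scalings and the mean over probe sets, of which 155 moved by less than 0.34. None of the genes past 2-fold changed sign, while 5 values of 3 genes near 0 did, reaching -0.04: MIR600HG under all 3 scalings, MIR22HG when centred and LINC00928 under loess. The other was LINC00987, at -0.83 with the mean over probe sets, which takes in its dim second probe set. No paired analysis was possible because each group has 1 array, and leaving out a replicate was not possible either. Levels near 3.7 have no detection call, so a small difference there cannot be read.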

Other observations

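Among the 326 genes that the level minimum left out, 1 was past 2-fold on the higher side and 0 on the lower. That gene was the host gene MIR4290HG, at 4.20 with cMyc shRNA and 2.99 with control shRNA, a difference of 1.21. Its control value is below the minimum, so the size of the difference is uncertain.

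LINC00173 had 4 probe sets, and the second of them by level read 4.43 with cMyc shRNA and 3.07 with control shRNA. That is a difference of 1.35, beside -0.09 on the probe set that stands for the gene. The control value of this second probe set is below 3.7, so the size of its difference is uncertain as well.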
